A study of Tachysurus fulvidraco x Tachysurus vachelli with 6 samples.

Results

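Of the 25792 genes in the deposited table, 7 were chosen as renin-angiotensin genes and 6 of these are described here. The 6 are ace (angiotensin-converting enzyme), the angiotensinogen gene agt, the renin gene ren, the angiotensin II receptor genes agtr1 and agtr2, and agtrap, whose product binds the type-1 receptor. The gene ace was taken by its symbol, because its values differed between the groups in these libraries, and the rest were taken by product name (a name that contains "angiotensin" or begins with "renin", renin receptors left out). The values of ace are therefore a description, with no test. RNA came from the second gill on the left side of juvenile hybrids between Tachysurus fulvidraco mothers and T. vachellii fathers (hybrid yellow catfish), with 3 untreated control libraries and 3 libraries from fish after 16 h of transport. The labels name no strain, allele or agent beyond the cross and the transport, and do not say whether a library holds 1 fish or a pool, so a p-value here speaks only of spread among libraries and may rest on technical spread.

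The renin-angiotensin system makes a peptide hormone outside the cell in steps. Renin, an aspartic protease, cuts angiotensinogen to angiotensin I, and angiotensin-converting enzyme, a membrane-bound zinc dipeptidyl carboxypeptidase, trims that to angiotensin II, which acts on G protein-coupled receptors to constrict vessels and to adjust salt and water balance. The same enzyme also degrades bradykinin. In fishes the gill vasculature is known as a site where angiotensin I is converted to angiotensin II.

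Expression is given as the deposited FPKM (fragments scaled by transcript length and library size), a scale per length on which levels of different genes can be set side by side. The libraries held 42962760 to 58495713 estimated counts each, and about 4 count units seemed to stand for 1 fragment. In the edgeR comparison of transport with control, 1389 of the 20771 genes tested were called at an adjusted p under 0.05, a background of 6.69%, with 3.23% higher and 3.46% lower after transport. In 32.7% of the tested genes the 3 control and 3 transport FPKM values were fully apart, and 25% had an unadjusted p under 0.05. The defining gill lists were present: the ionocyte markers summed to between 936 and 1550 FPKM per library and the epithelial markers to between 3696 and 5762 FPKM. In bulk tissue, more cells of a type and more RNA per cell cannot be told apart.

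Of the 6 genes, ace, which was chosen for its difference, lay far apart between the groups. The groups overlapped for agtrap, and agt, ren, agtr1 and agtr2 were at or near 0 in every library. Thus 2 of the 6 genes had enough counts to be tested, and 4 did not. The 6 genes lay on 6 different scaffolds.

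The substrate gene agt (NW_020848409.1, bases 138679 to 143723), which in other vertebrates is expressed mainly in liver, was listed at 0.04, 0 and 0 FPKM in control replicates 1, 2 and 3. In transport replicates 1, 2 and 3 it was listed at 0, 0.13 and 0.05 FPKM. These values rest on at most 12 estimated counts, or about 3 fragments, in any library. The renin gene ren (NW_020847974.1, bases 1414605 to 1424603), mainly a kidney gene in other vertebrates, was listed at 0.03, 0.02 and 0 FPKM in the controls and at 0, 0.02 and 0 FPKM after transport. A listed 0 allows up to 3 fragments, or 12 count units, in a library, counting error only. No difference in agt or ren was detectable at this depth.

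The converting enzyme gene ace (NW_020847941.1, bases 1849539 to 1868036, plus strand) stood at 5.09, 6.70 and 5.29 FPKM in control replicates 1, 2 and 3. In transport replicates 1, 2 and 3 it stood at 31.98, 41.40 and 46.89 FPKM. Every transport library lay above every control library, and the lowest of the former was several times the highest of the latter. The spread within a group was modest, with a coefficient of variation of 15.4% in the controls and 18.8% after transport. These levels rest on 1152, 1827 and 1059 estimated counts in control replicates 1, 2 and 3, against 6423, 9491 and 10368 for the transport libraries. The fitted log2 fold change was 2.80 (SE 0.19, n = 3 per group), a 6.95-fold difference.

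The rank of ace among the genes of the gill moved with its level. In the controls ace exceeded 59.4%, 65.7% and 60.8% of all genes in the table by FPKM. After transport it exceeded 91.2%, 93.2% and 94.2% of them. Of the 20771 genes tested, 171 had a larger positive log2 fold change than ace, and of the 16090 with a mean of at least 1 FPKM, 69 did. The annotation marks the ace product as a low-quality protein model, a RefSeq tag for models whose coding sequence had to be corrected against the genome.

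**Figure D1:**
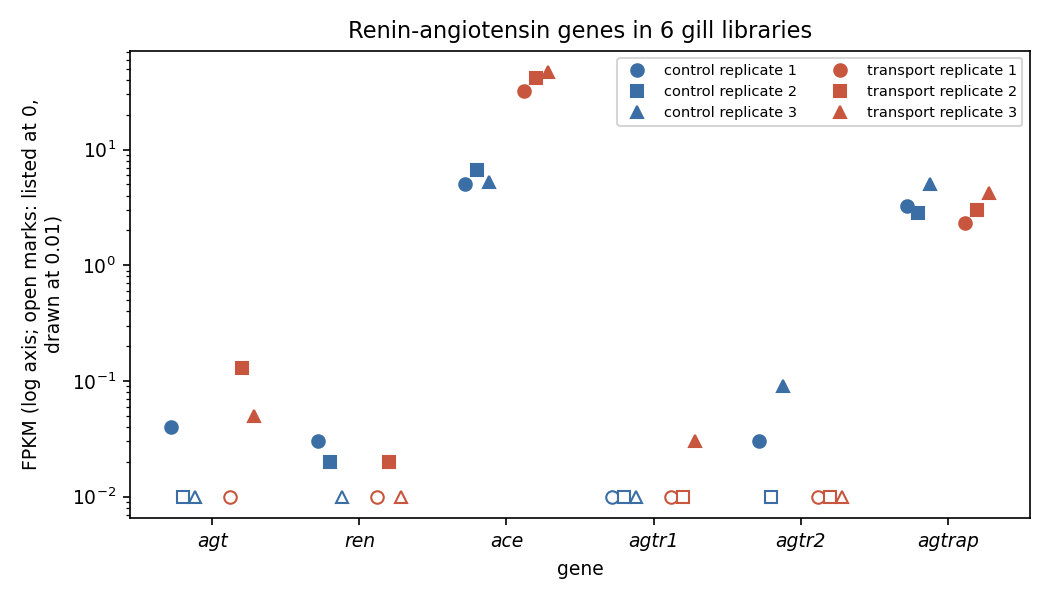
FPKM (log axis) of the 6 renin-angiotensin genes in each of the 6 libraries, blue for control and red for transport, with a mark shape for each replicate number and open marks at 0.01 for values listed at 0. The red points of ace lie between 31.98 and 46.89 FPKM, above its blue points at 5.09 to 6.70, whereas the colours overlap for agtrap and the other 4 genes stay at or below 0.13.

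The receptor genes were at or near 0 in these libraries. The type-1 receptor gene agtr1 (NW_020847902.1, bases 302500 to 322416), which mediates vasoconstriction, was listed at 0 in 5 libraries and at 0.03 FPKM in transport replicate 3. The type-2 receptor gene agtr2 (NW_020847955.1, bases 65109 to 76351), often opposed to type 1 in its actions, was listed at 0.03, 0 and 0.09 FPKM in the controls and at 0 in all 3 transport libraries. The control values of agtr2 rest on 4 and 12 estimated counts. No change in either receptor could be measured at this depth.

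The gene agtrap (NW_020847977.1, bases 1511817 to 1520550), whose product promotes internalization of the type-1 receptor in mammals, was the other of the 6 with measurable expression. It stood at 3.25, 2.81 and 5.0 FPKM in the controls and at 2.30, 2.99 and 4.19 FPKM after transport. The groups overlapped throughout (transport minus control -0.24 in log2, SE 0.36, adjusted p = 0.735 by edgeR, with an interval from -1.09 to 0.61 at 95%), and the sign turned to 0.05 without control replicate 3. Among these genes chosen by product name, agtrap was the 1 that could be tested: edgeR called 0, with 0 at an unadjusted p under 0.05 and 0 by DESeq2 or limma, against the background of 6.69%.

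The wider pathway was described by 6 lists of genes, which hold 102 rows of the table apart from the renin-angiotensin genes themselves, 79 of them tested. Of these 79, 1 rose and 3 fell (5.06% called, beside 6.69% of all genes). Among them 35 log2 fold changes were positive and 44 negative, and the median was -0.09 beside 0.0018 for all genes. Over all 20771 genes tested, 25% had an unadjusted p under 0.05 and DESeq2 called 3336. Only 2 of the 79 had a log2 fold change larger in size than that of ace, the peptidase gene lnpep and an atrial natriuretic peptide receptor gene, and edgeR called neither, while DESeq2 called both.

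Peptidases that trim or degrade angiotensins and related peptides, listed together with the renin receptor, had 18 tested genes. By edgeR none rose and 1 fell, beside 3.23% of all genes higher and 3.46% lower. There were 3 with an unadjusted p under 0.05, beside 25% of all genes. DESeq2 called 2, beside 3336 of all 20771 genes, and 1 of the 2 (lnpep) was higher. Of the 18, 7 log2 fold changes were positive, and the median was -0.08. The gene that fell was LOC113651900, similar to dipeptidyl peptidase 4, which clips dipeptides from peptide hormones. It stood at 5.89, 5.85 and 5.74 FPKM in the controls and at 3.46, 3.70 and 2.54 FPKM after transport, with no overlap (transport minus control -0.87 in log2, SE 0.17, adjusted p = 0.0349 by edgeR). Leaving out any 1 of the 6 libraries ended that call, with adjusted p from 0.0552 to 0.129. The second gene of this type, LOC113654129, had a log2 fold change of -0.27 and was not called.

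The aminopeptidase A gene enpep, whose product turns angiotensin II into angiotensin III, stood at 2.66, 6.97 and 5.11 FPKM in the controls and at 6.97, 4.99 and 4.74 FPKM after transport. These overlapping values differed by 0.16 in log2 (SE 0.35, adjusted p = 0.825 by edgeR). Neprilysin, mme, which degrades angiotensins, bradykinin and natriuretic peptides, was low in both groups, at 0.63, 0.82 and 0.37 FPKM and at 0.50, 0.97 and 1.30 FPKM (edgeR adjusted p = 0.472). The gene of neurolysin, nln, an oligopeptidase known for cutting neurotensin, stood at 2.21, 1.65 and 3.13 FPKM and then at 1.25, 0.86 and 1.82 FPKM, and was not called (edgeR adjusted p = 0.218).

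The insulin-regulated aminopeptidase gene lnpep, whose product binds angiotensin IV in mammals, was set apart by 2 libraries and was singled out after its values were seen. It stood at 0.78, 0.80 and 0.41 FPKM in the controls, and at 8.11, 6.87 and 0.51 FPKM in transport replicates 1, 2 and 3. Transport replicate 3 lay inside the control range. The log2 fold change of 2.93 (SE 0.88) was not called (edgeR adjusted p = 0.0947), but was called by DESeq2 (adjusted p = 0.0252) and by edgeR without transport replicate 3 (log2 fold change 3.47, adjusted p = 0.0262). Neither limma fit called lnpep (adjusted p = 0.202 and 0.223), nor did edgeR with the replicate number as a block (adjusted p = 0.171). Without any 1 of the other libraries, the edgeR adjusted p was between 0.152 and 0.261.

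Abundant intracellular peptidases of the list showed small differences. Thimet oligopeptidase, thop1, was at 21.3 ± 4.77 FPKM in the controls and 25.7 ± 1.81 FPKM after transport (SD, n = 3), and the lysosomal angiotensin-cutting enzyme gene prcp at 27.4 ± 2.43 and 24.6 ± 0.199 FPKM. The groups of prcp did not overlap, as in 32.7% of all genes tested, and prcp was not called (edgeR adjusted p = 0.349). The more abundant cathepsin D gene, LOC113652590, an aspartic protease gene like ren, was at 138 ± 9.54 and 134 ± 8.13 FPKM. By mean FPKM, ace was number 12 of 19 genes, itself and the 18 tested peptidase and renin receptor genes, in the controls and number 4 after transport, behind LOC113652590, the prolyl endopeptidase gene LOC113649193 (64.2 ± 2.80 FPKM) and atp6ap2. The level of ace after transport, 40.1 ± 7.54 FPKM, and that of atp6ap2, 41.6 ± 5.14 FPKM, lay within each other's spread.

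The renin receptor, which binds renin and prorenin and is also an accessory subunit of the vacuolar proton pump, was represented by 3 genes that the choice of members leaves out. The main one, atp6ap2, stood at 40.66, 43.92 and 40.33 FPKM in the controls and at 46.78, 41.54 and 36.51 FPKM after transport (transport minus control -0.02 in log2, SE 0.11, adjusted p = 0.938 by edgeR). The partial copy LOC113657140, on the same scaffold, was not called though its groups did not overlap, at 11.38, 10.84 and 13.97 FPKM and at 9.27, 8.87 and 8.87 FPKM (edgeR adjusted p = 0.138). The other partial copy, LOC113634631, ranged from 3.70 to 11.64 FPKM in the controls and from 6.80 to 8.80 FPKM after transport. The 3 genes share a product name, but their sequences were not compared. Whether the authors' counting split reads between them was not tested.

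**Figure D2:**
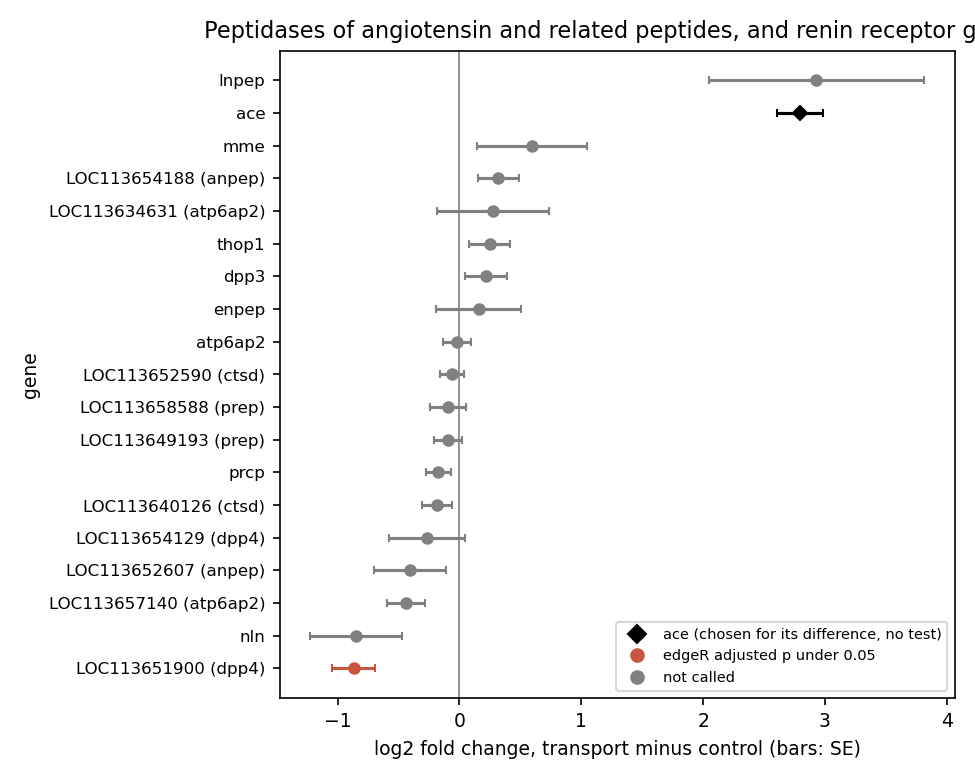
Log2 fold change, transport minus control, with SE bars, for ace (black diamond, no test) and the 18 tested genes of the peptidase and renin receptor list, red where edgeR called the gene. LOC113651900 is the 1 red point, at -0.87, while lnpep (2.93) has the widest bar and most others lie close to 0.

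Bradykinin is the other classical substrate of angiotensin-converting enzyme, and the genes of the kinin system were sparse. Of 11 rows found, 6 were tested and edgeR called 0 of them, beside 6.69% of all genes. There were 0 at an unadjusted p under 0.05, beside 25% of all genes. DESeq2 called 0, beside 3336 of all 20771 genes, and the limma fits 0, beside 1399 and 1417 of 21003. The kininogen gene kng1, the bradykinin precursor, stood at 0.45, 0.16 and 0.06 FPKM in the controls and at 0.28, 0.05 and 0 FPKM after transport. The bradykinin B1 receptor gene LOC113659345 did not exceed 0.34 FPKM in the controls or 0.74 FPKM after transport. The smallest p belonged to cpd, a carboxypeptidase gene, at 12.3 ± 0.894 and 10.53 ± 2.25 FPKM (edgeR adjusted p = 0.415).

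Natriuretic peptides and endothelins, which oppose and add to angiotensin II in the control of vessels and salt, had 18 tested genes with 9 positive values. Of them 0 were called by edgeR, beside 6.69% of all genes, and 6 had an unadjusted p under 0.05, beside 25% of all genes. DESeq2 called 4 of the 18, beside 3336 of all 20771 genes. Each limma fit called 1, beside 1399 and 1417 of 21003 genes. The smallest p was that of LOC113641233, similar to endothelin-2, a vasoconstrictor peptide. It stood at 10.06, 13.91 and 9.49 FPKM in the controls and at 32.20, 24.48 and 15.81 FPKM after transport, without overlap (transport minus control 1.09 in log2, SE 0.28). It was not called by edgeR (adjusted p = 0.0654) and was called by DESeq2 (adjusted p = 0.00393). Neither limma fit called it (adjusted p = 0.0694 and 0.0676), nor did edgeR with the replicate number as a block (0.120). Without any 1 library, edgeR did not call LOC113641233 (adjusted p from 0.0751 to 0.211). The receptor gene LOC113650062, similar to atrial natriuretic peptide receptor 1, was at 0.60, 0.14 and 0.04 FPKM and then at 1.31, 1.96 and 2.32 FPKM (transport minus control 2.82 in log2, SE 0.85, adjusted p = 0.0957 by edgeR). It was called by DESeq2 (adjusted p = 0.00242), by the limma fits of log2 FPKM (0.0291 and 0.0475), and by edgeR without control replicate 1, where the log2 difference was 4.27 (adjusted p = 0.0205). Without any 1 of the other libraries, edgeR did not call LOC113650062 (adjusted p from 0.1275 to 0.2532), nor with the replicate number as a block (0.1653). This receptor gene was singled out after its values were seen. The clearance receptor gene npr3, the most abundant of these at 72.5 ± 8.69 and 69.2 ± 2.19 FPKM, differed by less than its spread.

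The atrial natriuretic peptide gene LOC113656286, a heart hormone gene, was not tested because too few libraries reached the minimum count, and was singled out after its values were seen. It was listed at 0, 0.07 and 0.10 FPKM in the controls and at 9.99, 4.86 and 0.09 FPKM in transport replicates 1, 2 and 3. The same 2 transport libraries were high as for lnpep, and transport replicate 3 was again within the control range.

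Other vasoactive receptors and nitric oxide signalling had 17 tested genes. By edgeR 1 of these fell and none rose, beside 3.46% of all genes lower and 3.23% higher. An unadjusted p under 0.05 was reached by 3, beside 25% of all genes. DESeq2 called 2, beside 3336 of all 20771 genes. The list had 7 positive values and a median log2 fold change of -0.24. The gene that fell, LOC113642021, is similar to the vasopressin V2 receptor, which in mammals drives water retention by the kidney. It stood at 1.64, 1.54 and 1.72 FPKM in the controls and at 0.58, 0.46 and 0.60 FPKM after transport. These groups were tight and far apart (transport minus control -1.58 in log2, SE 0.22, adjusted p = 0.0164 by edgeR). The call was lost without control replicate 3 (adjusted p = 0.0524), transport replicate 2 (0.105) or transport replicate 3 (0.0636).

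The mineralocorticoid arm, which in mammals responds to the aldosterone that angiotensin II raises, had 6 tested genes. These were genes of corticosteroid receptors, hsd11b2 and sgk1. The 1 steroid synthesis row found, LOC113647799, was at 0 in every library. Of the 6, 2 had an unadjusted p under 0.05, beside 25% of all genes. DESeq2 called 1 of the 6, beside 3336 of all 20771 genes. Over all genes edgeR called 3.23% higher and 3.46% lower, and in this list none rose and 1 gene fell. This was the mineralocorticoid receptor gene nr3c2, at 1.95, 2.90 and 2.13 FPKM in the controls and 1.18, 0.99 and 1.11 FPKM after transport (transport minus control -1.10 in log2, SE 0.23, adjusted p = 0.0378 by edgeR). Its call was lost without control replicate 2 or 3 or any 1 transport library (adjusted p from 0.0763 to 0.172) and in the limma fits of log2 FPKM (0.0520 and 0.0518). The enzyme gene hsd11b2, which inactivates cortisol, was at 45.5 ± 9.34 and 55.6 ± 25.7 FPKM and was not called (edgeR adjusted p = 0.678).

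Among 14 tested genes for signalling downstream of the type-1 receptor, by edgeR 1 rose and none fell, beside 3.23% of all genes higher and 3.46% lower. The median log2 fold change of the 14 was 0.11. An unadjusted p under 0.05 was reached by 7 of the 14, beside 25% of all genes. DESeq2 called 5, beside 3336 of all 20771 genes. The limma fits called 0, beside 1399 and 1417 of 21003 genes. LOC113657743, similar to the G protein alpha-11 subunit that couples such receptors to calcium release, rose from 1.76, 1.44 and 1.58 FPKM to 2.63, 2.75 and 2.74 FPKM (transport minus control 0.74 in log2, SE 0.15, adjusted p = 0.0331 by edgeR). The call was lost when any library other than control replicate 1 was left out (adjusted p from 0.0657 to 0.166), and in the limma fits (0.0566 and 0.0605). A second gene of that product name, LOC113657742, stood at 14.13, 15.77 and 13.12 FPKM and then at 23.38, 20.26 and 18.38 FPKM without being called (edgeR adjusted p = 0.0549).

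**Figure D3:**
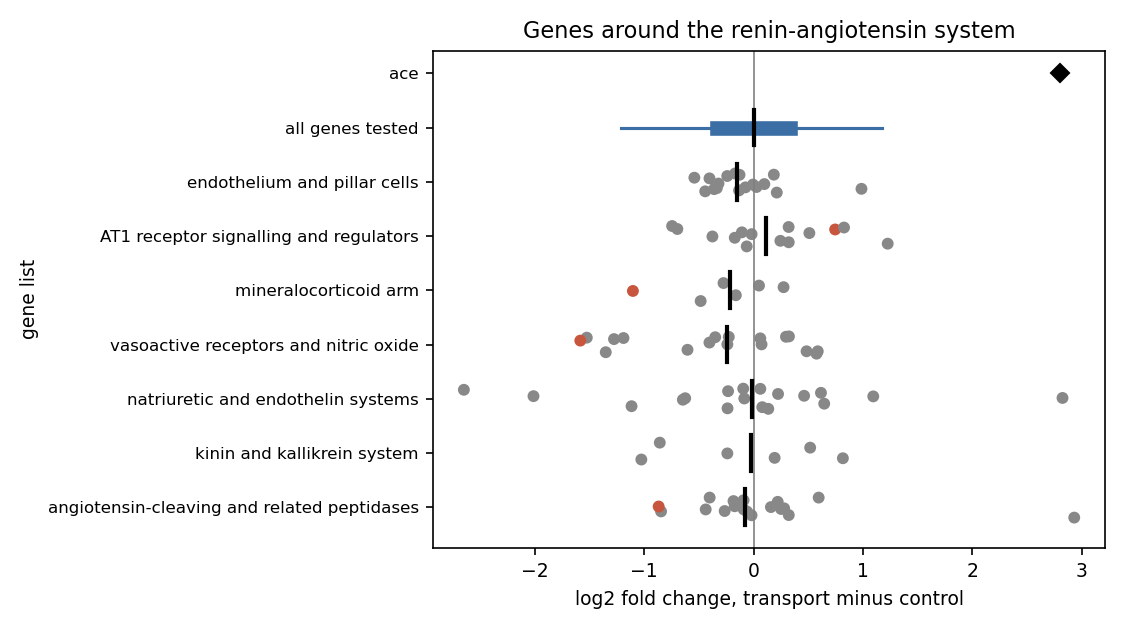
Log2 fold change, transport minus control, of each tested gene in 6 lists around the renin-angiotensin system and in the endothelial and pillar cell markers, red where edgeR called the gene, with a black bar at each list's median. For all genes tested the thin line spans the 5th to 95th percentile and the thick line the middle 50%. The medians of the lists lie between -0.24 and 0.11, and their single genes between -2.65 and 2.93. The gene ace, chosen for its difference, stands at 2.80.

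In mammals ace is strongly expressed by endothelium, and the pillar cells that line the blood spaces of the gill lamellae are endothelial. Of 23 endothelial and pillar cell marker rows, 18 were tested. Of these edgeR called 0, beside 6.69% of all genes (the smallest adjusted p was 0.108, for vwf). An unadjusted p under 0.05 was reached by 3, beside 25% of all genes. DESeq2 called 1, beside 3336 of all 20771 genes, and the limma fits called 0, beside 1399 and 1417 of 21003. The 18 had 5 positive values and a median of -0.15. The summed level of the marker rows was 158.7 to 205.4 FPKM in the controls and 138.0 to 171.1 FPKM after transport. No marker row was at 0 in every library. Set against that sum, which does not include it, ace stood at 3.21%, 3.26% and 2.61% in the controls and at 18.7%, 26.2% and 34.0% after transport. Since ace was chosen for its difference, these shares largely restate that difference. The part of endothelial cells in the level of ace was not tested.

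Markers of other cells that the gill could hold were read in the same way. Over all genes tested, edgeR called 3.23% higher and 3.46% lower. Smooth muscle and pericyte markers had 1 of 13 higher and 1 lower, with sums of 629.5 to 743.6 FPKM in the controls and 658.1 to 756.1 FPKM after transport, and 1 of their 16 rows was at 0 throughout. Macrophage and neutrophil markers had 1 of 12 higher (lyz) and 2 lower, with sums of 311.1 to 343.7 and 302.7 to 317.9 FPKM. B and T cell markers had 3 of 5 lower, beside 3.46% of all genes, with sums of 59.8 to 89.4 and 48.0 to 102.8 FPKM. Their log2 fold changes ran from -1.49 to 1.35, with a median of -1.06 and 1 positive value.

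Erythrocyte markers had 0 of 13 called by edgeR, beside 6.69% of all genes, and 2 by DESeq2, which called 3336 of all 20771 genes. Of these markers 3 had an unadjusted p under 0.05, beside 25% of all genes. Their sums were 7131 to 14017 FPKM in the controls and 5116 to 11807 FPKM after transport. Epithelial markers had 4 of 24 lower, beside 3.46% of all genes, with sums of 3700 to 5762 and 3696 to 4066 FPKM. Ionocyte markers had 1 of 15 higher, beside 3.23% of all genes, with sums of 936 to 1191 and 1056 to 1550 FPKM. Skeletal muscle markers had 0 of 10 called by edgeR, beside 6.69% of all genes, and 0 by DESeq2, beside 3336 of all 20771. There were 0 with an unadjusted p under 0.05, beside 25% of all genes. Their sums varied most between libraries, from 287.5 to 1554 FPKM in the controls and from 184.8 to 1380 FPKM after transport. Markers of intestinal and kidney epithelium, whose brush borders carry the enzyme in mammals, had 6 tested genes. Of these edgeR called 0, beside 6.69% of all genes, and DESeq2 called 1, beside 3336 of all 20771. An unadjusted p under 0.05 was reached by 2 of the 6, beside 25% of all genes. These markers summed to between 5.0 and 7.74 FPKM in every library. In none of these marker sums did all transport libraries lie above all controls, and their part in the level of ace was not tested.

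The genes whose levels followed ace most closely over the 6 libraries were lrp2bp, rpf2, esm1, htd2, dnajc8 and mfsd14a. They had the highest Pearson correlations of log2 CPM with ace among 7789 genes with a symbol and a mean of at least 1 FPKM, from 0.994 to 0.997 (n = 6 libraries). Any gene that separates the groups scores high on this measure, and 8.10% of the 7789 genes reached 0.9. Deviations from the group means, which leave out the difference between groups, correlated with those of ace at 0.766 to 0.968 for these 6 genes, which had been picked on values that include them.

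The gene esm1, which encodes endocan, a proteoglycan secreted by endothelial cells in mammals, stood at 3.89, 4.34 and 3.81 FPKM in the controls and at 9.04, 11.77 and 12.39 FPKM after transport. The ribosome assembly factor gene rpf2 stood at 17.06, 20.00 and 16.43 FPKM and then at 36.52, 40.62 and 44.45 FPKM. For both, as for ace, control replicate 2 was the highest control, and transport replicate 1 the lowest of the transport libraries. Both were picked for following ace, so a shared order comes with the choice. Control replicate 1 lay above control replicate 3 for esm1 and rpf2 and below it for ace. The other 4 genes had log2 fold changes between 0.40 and 0.87.

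**Figure D4:**
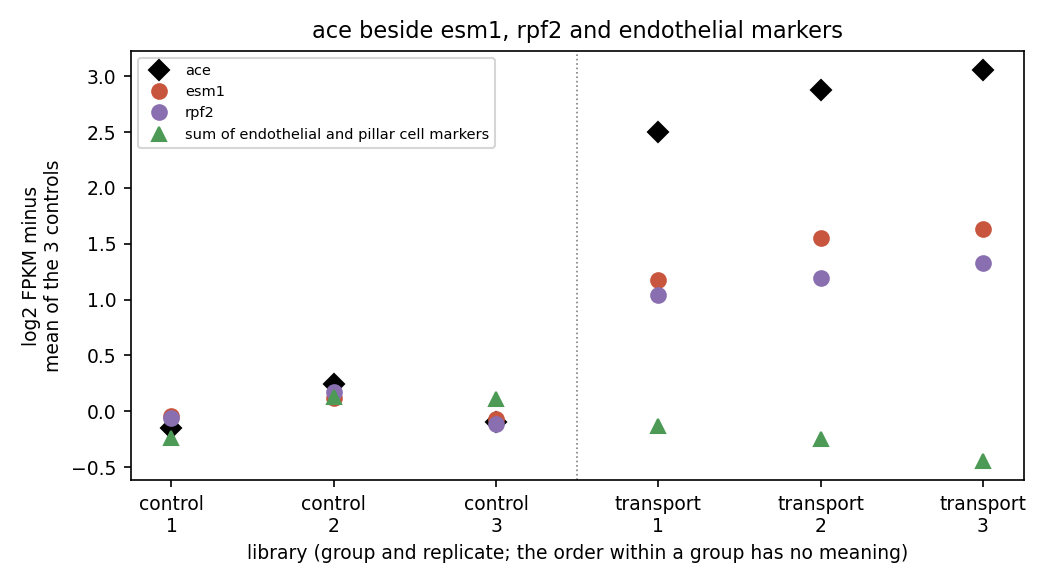
Log2 FPKM minus the mean of the 3 controls for ace, esm1, rpf2 and the summed endothelial and pillar cell markers in each of the 6 libraries (x axis, group and replicate). The marks of ace, esm1 and rpf2 lie near 0 in the controls and above 1 after transport, while the marker sum shows no such separation.

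On its scaffold, which holds 96 genes of the table, ace lies between 2 genes that were also higher after transport. Of the 5 genes to each side, all 10 tested, 2 rose and none fell, beside 3.23% of all genes higher and 3.46% lower. The groups did not overlap for 3 of the 10, beside 32.7% of all genes. Both genes that rose were the ones next to ace. The other 8 had log2 fold changes from -0.32 to 0.57, and edgeR called none of them. The upper end was ptges3l, at no more than 0.28 FPKM in any library, whose log2 fold change was 1.43 without control replicate 1 and 0.15 without transport replicate 3.

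The gene on the upstream side, LOC113653555, is annotated as a partial formin-like protein and lies on the minus strand, 12.9 kb before ace. It stood at 1.59, 1.13 and 1.81 FPKM in the controls and at 7.49, 10.20 and 9.16 FPKM after transport, without overlap (transport minus control 2.55 in log2, SE 0.24, adjusted p = 0.00641 by edgeR). The call was lost without transport replicate 2 (adjusted p = 0.0634), with a log2 fold change of 2.44.

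The gene on the downstream side, LOC113653516, is similar to integrin alpha-3, an adhesion receptor subunit, and its span begins 0.461 kb past the end of ace, on the opposite strand. It rose less, from 3.35, 3.50 and 3.01 FPKM to 5.79, 5.01 and 5.90 FPKM (transport minus control 0.74 in log2, SE 0.13, adjusted p = 0.0289 by edgeR). Its call was lost without control replicate 3 (adjusted p = 0.0850) and without transport replicate 1 (0.0805), 2 (0.123) or 3 (0.117). The next gene, the homeobox gene dlx3, 68.9 kb away, stood at 19.14, 12.19 and 15.21 FPKM and at 16.80, 12.51 and 13.12 FPKM (edgeR adjusted p = 0.691). The labels do not say whether the libraries keep strand, and reads beyond an annotated gene end cannot be told apart here from those of an opposite neighbour.

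**Figure D5:**
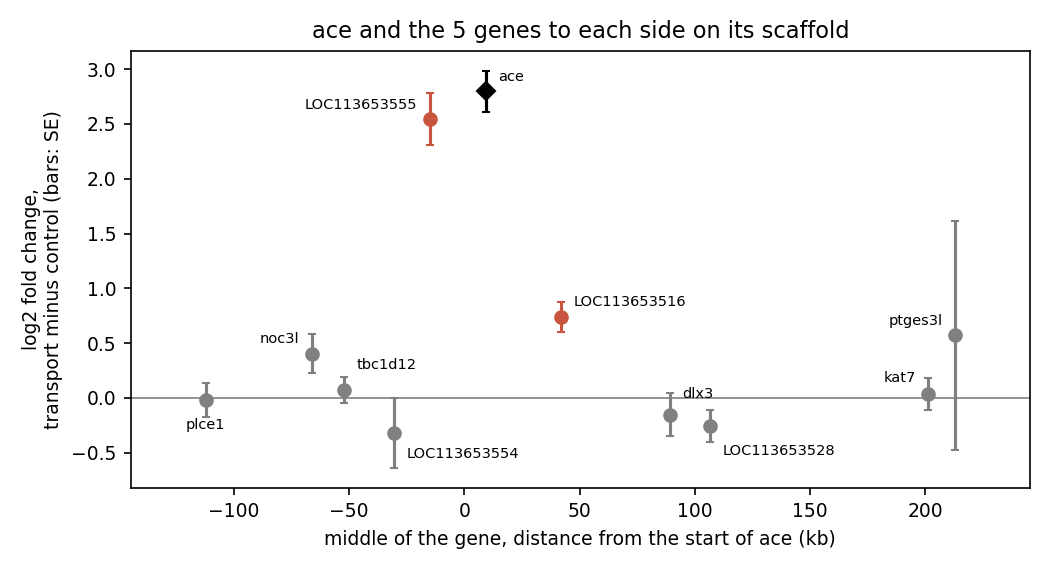
Log2 fold change, transport minus control, with SE bars, for ace (black diamond) and the 5 genes to each side, placed by the distance of each gene's middle from the start of ace in kb, red where edgeR called the gene. The 2 red points, LOC113653555 at 2.55 and LOC113653516 at 0.74, are the genes next to ace, and the 8 farther genes lie between -0.32 and 0.57.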

How the data were processed

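RNA from 6 gill libraries (3 control, 3 transport) was sequenced. Per the file headers, the authors deposited a count and an FPKM for each gene and library in 1 table. HISAT and StringTie appear in the submitters' processing notes, while their versions and the genome build are not given in the sources used here. Deposited counts were treated as estimated counts, since values of 4 (417 to 485 genes per library) far outnumbered values of 3 or 5. They were already whole.

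Counts were compared with edgeR 4.0.16 in R 4.3.3 (filterByExpr, minimum count 10 and minimum total 15, TMM scaling, two-sided quasi-likelihood F test, Benjamini-Hochberg adjustment over 20771 genes, threshold 0.05). This step was tried on simulated negative binomial counts, which did not mimic the about 4 units per fragment of the deposited counts. SE is the size of the log2 fold change over the square root of F. Alternatives used DESeq2 1.42.0, limma 3.58.1 on log2(FPKM + 1) and log2(FPKM + 0.1), other scalings and filters, counts divided by 4, a replicate block and each library left out. The 6 members described were named, and 1 more is not reported here; of each list, every called gene or, with none, that with the smallest p; also enpep, mme, atp6ap2, 6 genes most like ace and 5 to each side. The members and lists were chosen with earlier results of these data known.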

Additional observations from a re-analysis of the deposited data

How the results depend on the processing

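The log2 fold change of ace stayed between 2.61 and 2.94 under all 15 alternatives, and no alternative called agtrap. The number of genes called over the whole table was 1389 in the main analysis, 3336 with DESeq2, and between 3 and 1498 with 1 library left out. In the related lists it was 4 in the main analysis, 14 with DESeq2, and between 0 and 5 with 1 library left out. All 4 kept their sign in every alternative. None of the 4 stayed called without control replicate 3, transport replicate 2 (3 calls in the whole table) or transport replicate 3. The labels do not say whether the replicate numbers pair the libraries. Deviations from the group means of same-numbered libraries correlated at -0.0735 to -0.0296, and those of differently numbered libraries at -0.0262 to 0.0648. Of the 3 control libraries, 0 correlated best with its own number. With 3 libraries per group these values cannot decide whether the libraries are paired. With the replicate number as a block, 14 genes were called in all and 0 in the lists, and neither gene next to ace was called (adjusted p = 0.0661 for LOC113653555 and 0.114 for LOC113653516, by edgeR).

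Signs turned, in genes not called, when 1 library was left out. The log2 fold change then ranged from -0.51 to 0.051 for agtrap, -0.15 to 0.50 for enpep, -0.11 to 0.061 for atp6ap2, -0.0067 to 1.04 for LOC113634631, -0.20 to 0.0013 for LOC113649193 and -0.11 to 0.0022 for LOC113652590. It ranged from -0.48 to 0.0064 for LOC113654129, -0.18 to 0.0090 for LOC113658588, -0.14 to 0.11 for plce1, -0.034 to 0.15 for tbc1d12, -0.30 to 0.010 for dlx3 and -0.036 to 0.16 for kat7. In the limma fits plce1 turned to 0.0059 (FPKM + 1) and 0.011 (FPKM + 0.1). The causes were not tested. Depth limits agt, ren, agtr1 and agtr2, which rest on at most about 3 fragments in any library.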
